A study of Mus musculus with 15 samples.

Results

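The enzymes that make, use and recycle glutathione and that remove superoxide and peroxides were followed in 2 brain regions, cerebellum (Ce) and striatum (St), in mice bred for high voluntary wheel running (Hi) and in an unselected control line (Co). Members were taken by gene symbol: the cytosolic and microsomal glutathione S-transferases (GST and MGST), glutathione peroxidases (GPX), peroxiredoxins (PRDX), thioredoxins and their reductases (TXN and TXNRD), superoxide dismutases (SOD), catalase, the glutathione synthesis enzymes, glutathione reductase, Nqo1 and the haem oxygenases. The rule found 54 genes of 26628 in the table, and 45 of them were abundant enough to be tested. All animals were males of the Hsd:ICR strain, labelled as 6 weeks old, and every mouse of both lines had access to a running wheel before it was killed on day 7. The groups were CeCo (n = 4), CeHi (n = 4), StCo (n = 4) and StHi (n = 3), each sample being the whole region of a single mouse. A further StHi sample was removed by the authors. Hi and Co were each a single line, so the line difference cannot be told apart from drift between these lines or from the running itself.

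Glutathione is a small thiol peptide that is joined from its amino acids by glutamate-cysteine ligase (Gclc and Gclm) and glutathione synthetase (Gss). Peroxidases spend it on peroxides, transferases attach it to reactive lipids and foreign compounds, and glutathione reductase (Gsr) restores it with NADPH. Peroxiredoxins and thioredoxins form a parallel thiol system, while superoxide dismutases produce the hydrogen peroxide that catalase, GPX and PRDX enzymes remove. In brain, glutathione is held largely by glia, and neurons depend on cysteine supplied from outside. In bulk tissue, fewer cells of a type and less RNA per cell cannot be told apart.

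Values are normalised counts, that is, the fragments of a gene divided by a size factor of its sample. A sample totalled between 32909383 and 47485535 fragments, and 1 fragment was worth between 0.841 and 1.30 normalised counts, so counting error was small for all but the rarest members. Differences are log2 (fold change) ± SE, Hi minus Co or St minus Ce, fitted with limma on log2 of the value plus 1 over 15213 genes, and a gene was called at an FDR-adjusted P-value under 0.05. Region labels were borne out by the markers: all 4 cerebellar granule cell and all 4 Purkinje cell markers were higher in Ce and all 5 medium spiny neuron markers were higher in St. The summed choroid plexus markers varied within Ce from 1400 to 116302 and the library CeHi replicate 3 had the smallest weight, 0.401, when libraries were weighted by their scatter.

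Levels differed over several orders of magnitude between members. Per kilobase of exon, the mean normalised count over all samples was highest for Sod1, the cytosolic copper-zinc superoxide dismutase, with group means of 7470.1 (CeCo) and 8622 (CeHi) in the cerebellum and 10936 (StCo) and 11994 (StHi) in the striatum. Gpx4, which reduces lipid hydroperoxides in membranes, was above Sod1 in the cerebellum, at 8138 and 8865, and below it in the striatum, at 7362 and 7712. However, 34.7% of the exon windows of Gpx4 are shared with other genes, most often with the pseudogene Gpx4-ps2. Gstm1 led the transferases at 3907 to 5952, and Prdx2 led the peroxiredoxins at 4526 to 5126. At the low end of the tested members were Gsto2, at 13.6 to 21 per kilobase, and Gpx6, which was near 0 in Ce.

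**Figure D1:**
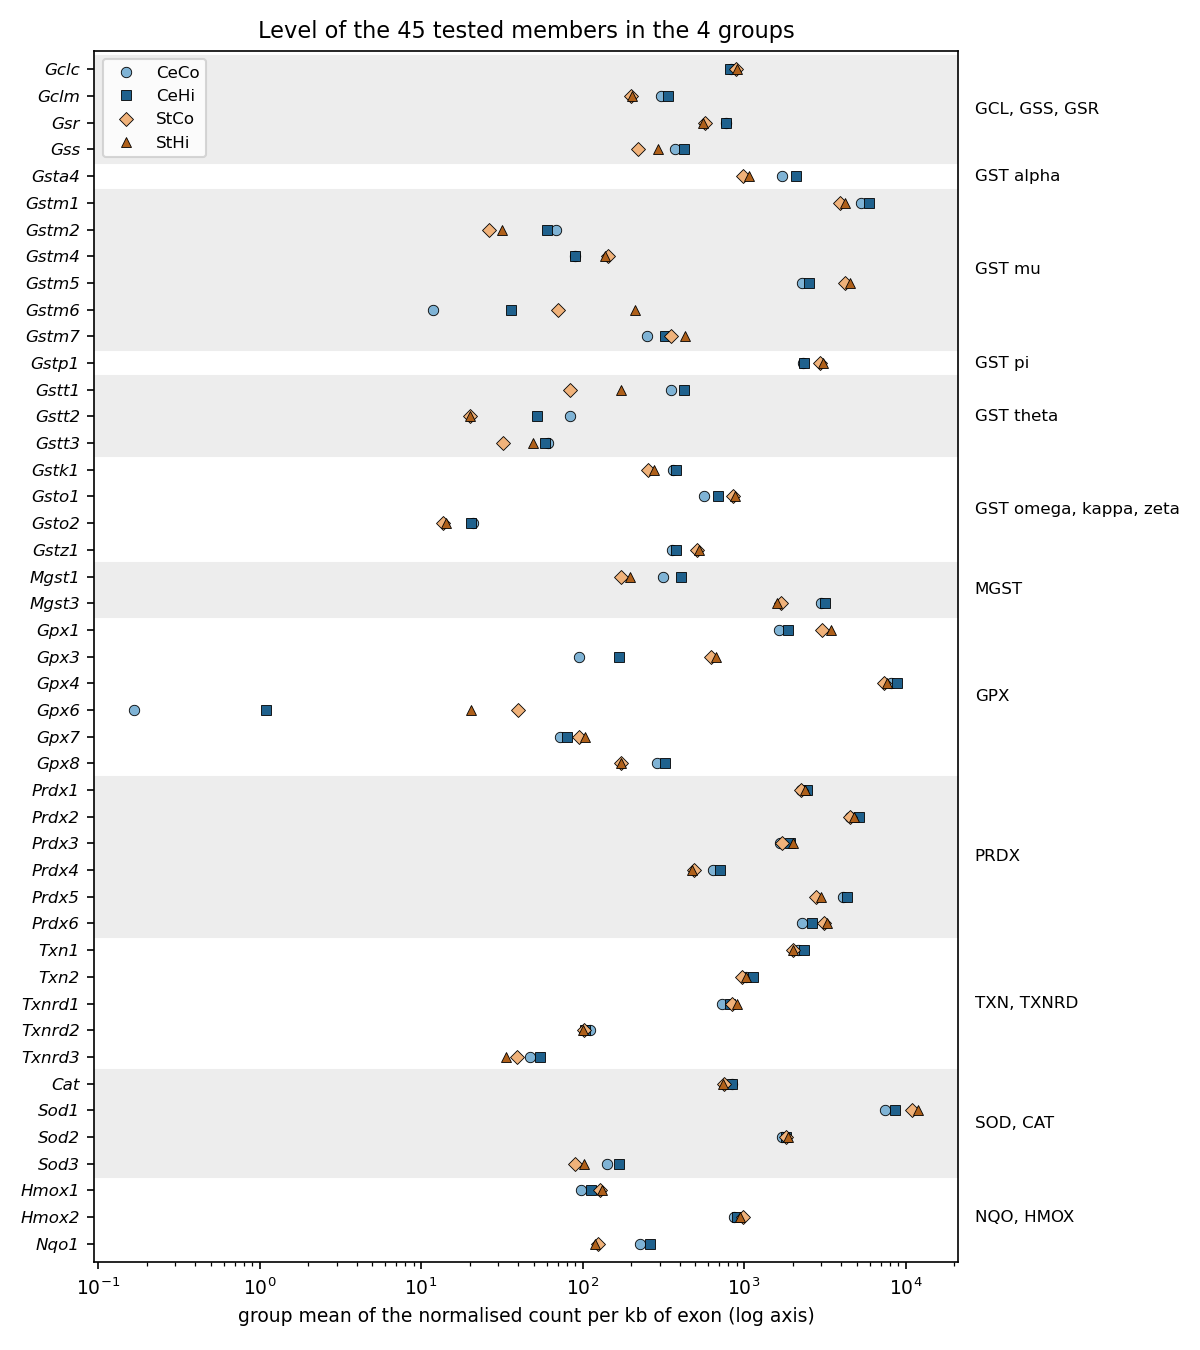
Mean normalised count per kilobase of exon (log axis) of the 45 tested members in CeCo, CeHi, StCo and StHi, grouped by enzyme class. Sod1 and Gpx4 lie farthest to the right, and Gstm6 and Gpx6 have the widest spread between groups.

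Between lines, 4 of the 45 tested members were called in the cerebellum and 4 in the striatum, and all of these were over-expressed in Hi. The background was 5.94% of all genes tested in the cerebellum (2.94% called and higher in Hi) and 2.66% in the striatum (1.49% called and higher in Hi). The cerebellar calls were Gstm6, Prdx3, Sod1 and Gsta4, and the striatal calls were Gstm6, Gss, Gstt1 and Prdx3. Of the 45 members, 36 had a positive line difference in the cerebellum (35 of 44 without Gpx6, whose cerebellar samples held at most 2 fragments) with a median of 0.14, beside a median of -0.0021 and 49.4% positive over all genes tested. In the striatum 33 were positive with a median of 0.064, beside -0.0046 and 48.3%. Every CeHi sample was above every CeCo sample for 10 members (6.88% of all genes tested did the same), and every StHi sample was above every StCo sample for 8 (7.2% of all genes). No tested member had every Hi sample below every Co sample in either region.

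Gstm6 had adjusted p-values under 0.001 in both regions and Gss in the striatum, while the other 5 calls lay between 0.0264 and 0.0492. Gstm6 was called in both regions, and Gss in the striatum, under every alternative run. In the cerebellum the count ranged from 1 to 6 when single libraries were left out, and Gstm6 alone was called without CeCo replicate 0, CeCo replicate 3, CeHi replicate 0 or CeHi replicate 3. It was 2, Gstm6 and Prdx3, without CeCo replicate 1, CeHi replicate 2, StCo replicate 1 or StHi replicate 2. Without CeHi replicate 3 the cerebellar median fell to 0.095, with 35 members positive. In the striatum 2 members, Gss and Gstm6, were called without any one of the 3 StHi samples.

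**Figure D2:**
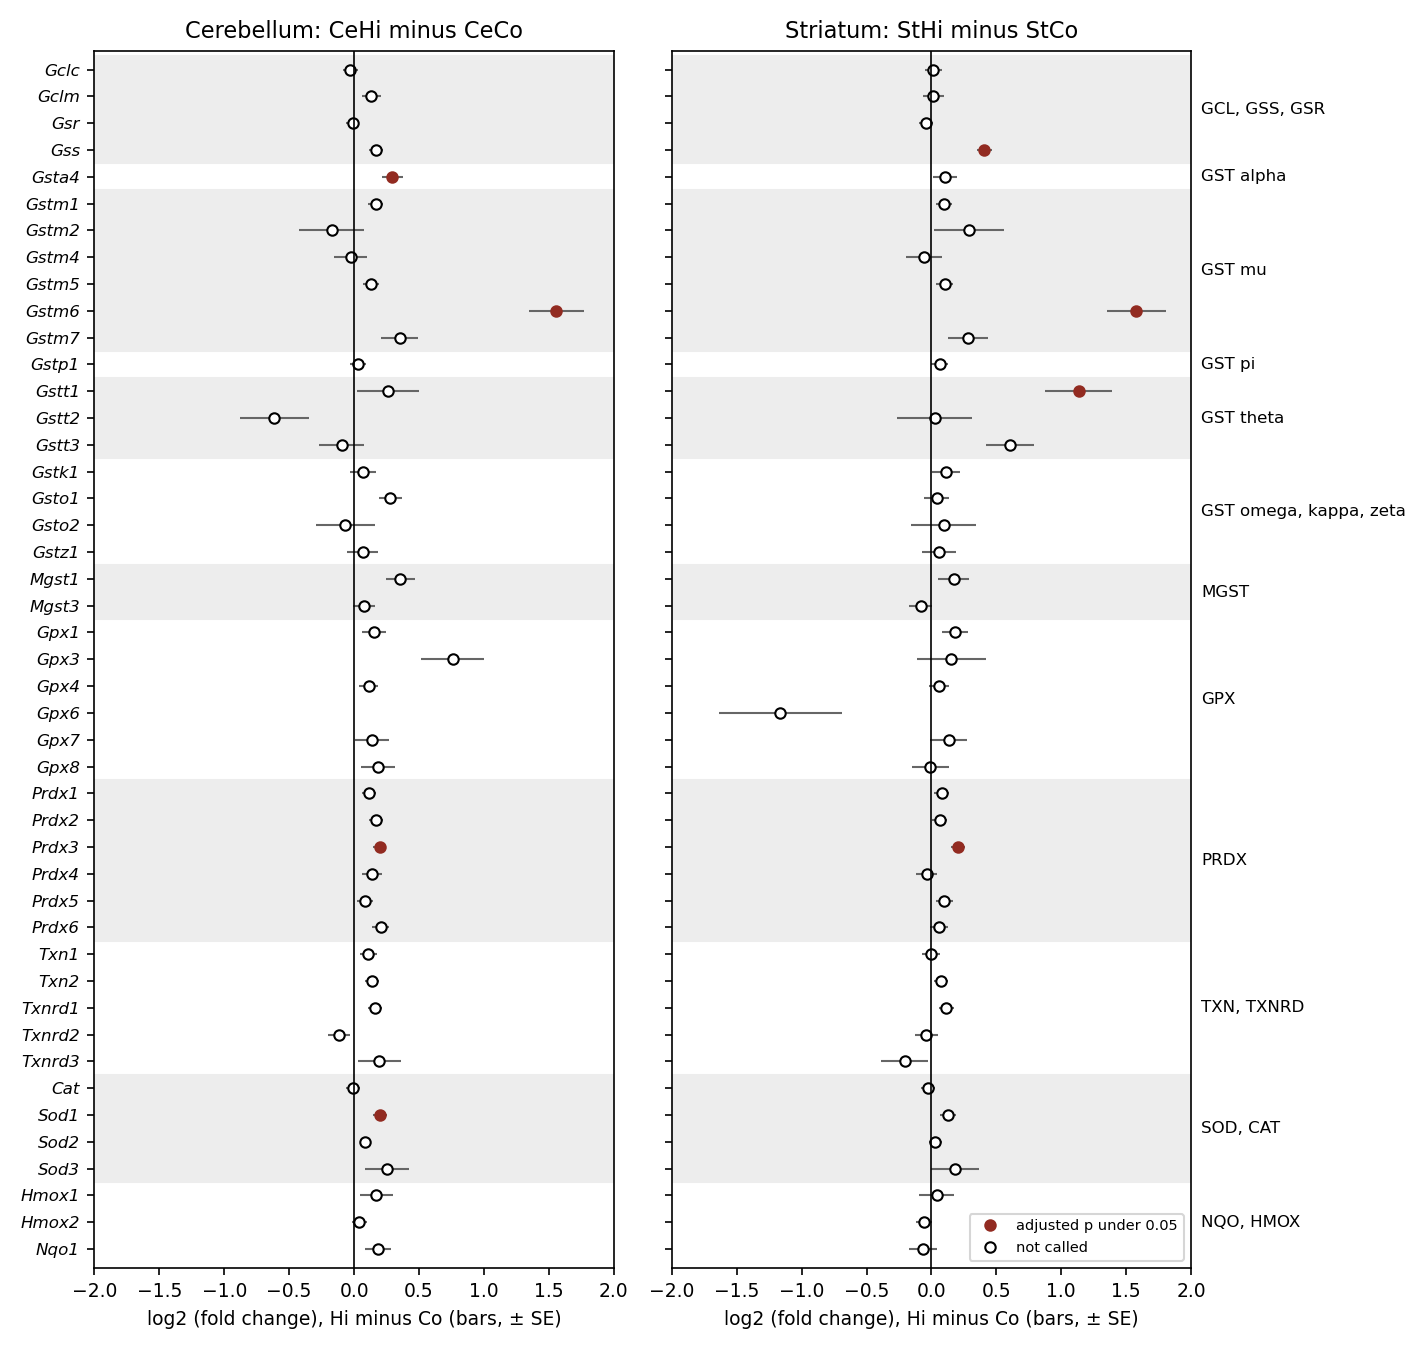
Line difference, log2 (fold change) Hi minus Co with its SE, of the tested members in the cerebellum (left, without a point for Gpx6, which was at the detection floor there) and striatum (right), grouped by enzyme class. Filled points are called at an adjusted p under 0.05: Gsta4, Gstm6, Prdx3 and Sod1 on the left, and Gss, Gstm6, Gstt1 and Prdx3 on the right.

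The enzymes of glutathione synthesis and recycling differed among themselves. Gss, which joins glycine to gamma-glutamylcysteine in the last step of synthesis, had 438, 421, 445 and 429 normalised counts in StCo and 567, 593 and 572 in StHi. The samples of a line lay close together and the lines did not overlap. The striatal line difference was 0.41 ± 0.06 (adjusted p = 0.000616), a 1.33-fold higher level in StHi. In the cerebellum Gss was 717, 736, 726 and 759.7 in CeCo and 808, 793, 848 and 868 in CeHi, again without overlap, with a difference of 0.17 ± 0.055 that was not called (adjusted p = 0.0887). The difference between the regional line effects was 0.24 ± 0.081 and was not called either (adjusted p = 0.282). Gclc, the catalytic subunit of the rate-limiting ligase, had line differences of -0.028 ± 0.06 in the cerebellum and 0.015 ± 0.065 in the striatum, with group means between 2785 and 3107. Its regulatory partner Gclm gave 0.13 ± 0.075 and 0.012 ± 0.08, and the reductase Gsr -0.011 ± 0.05 and -0.044 ± 0.054. None of these 3 genes was called for line.

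Gss lies at chr2:155563181-155592810 on the minus strand (GRCm38), where it overlaps the opposite-strand genes Acss2, Gssos1 and Gssos2, and 10.3% of its exon windows are shared. The counting is not stated to have used strand, so reads of these genes cannot be told apart there. Several promoters were read for the core of the antioxidant response element, TGACNNNGC on either strand, the motif to which the transcription factor NRF2 binds with small MAF proteins at many genes of glutathione metabolism. Windows were the 250 bases before each RefSeq start (GRCm38.p6), 5′ to 3′ on the strand of the gene, with any match in capitals. The motif was present in the windows of 8 of the 47 members that have one (17.0%), namely Gclm, Gsta3, Gstm5, Gstm7, Mgst1, Prdx1, Sod1 and Txnrd1, against 11.5% of all genes with a window. The windows of Gss and Gstm6, which were called under every alternative run, and of Sod1, the called member with a match, read:
Gss, chr2:155592811-155593060, minus strand: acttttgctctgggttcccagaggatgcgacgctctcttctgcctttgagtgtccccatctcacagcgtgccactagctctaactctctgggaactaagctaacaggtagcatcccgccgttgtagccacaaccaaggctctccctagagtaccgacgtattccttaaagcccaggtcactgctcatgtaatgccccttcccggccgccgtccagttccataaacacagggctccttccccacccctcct
Gstm6, chr3:107943735-107943984, minus strand: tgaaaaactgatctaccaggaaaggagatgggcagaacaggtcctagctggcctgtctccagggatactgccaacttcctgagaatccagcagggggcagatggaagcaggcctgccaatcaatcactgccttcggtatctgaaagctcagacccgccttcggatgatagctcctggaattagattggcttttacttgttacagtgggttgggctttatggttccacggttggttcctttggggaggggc
Sod1, chr16:90220512-90220761, plus strand: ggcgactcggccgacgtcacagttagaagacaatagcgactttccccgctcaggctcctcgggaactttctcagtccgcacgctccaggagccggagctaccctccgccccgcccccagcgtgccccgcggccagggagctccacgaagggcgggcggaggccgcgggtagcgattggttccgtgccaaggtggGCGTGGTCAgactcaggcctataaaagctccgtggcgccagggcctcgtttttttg
The match in Sod1 lies 56 bases before the start, on the minus strand. The windows of Gss, Gstm6 (its other windows too), Gstt1 and Prdx3 do not hold these letters. A match is a description of the sequence and not evidence of binding, and Gsta4 has no window in the table used.

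The mu class of transferases held the largest line difference among the tested members. Gstm6, a low-abundance mu transferase, had 17.7, 11.6, 18.8 and 10.7 normalised counts in CeCo and 40.4, 34.8, 49.1 and 55 in CeHi. In the striatum it had 67.9, 86.1, 110.3 and 85 in StCo and 235, 260.3 and 287 in StHi. The lowest Hi sample of each region was above the highest Co sample of that region, so the lines separated completely. The line difference was 1.56 ± 0.21 in the cerebellum (adjusted p = 0.000163) and 1.58 ± 0.23 in the striatum (adjusted p = 0.000548), or 2.94-fold and 2.99-fold. The difference between the regions' line effects was 0.02 ± 0.31. Over all alternatives the difference stayed between 1.33 and 1.69 in the cerebellum and between 1.47 and 1.70 in the striatum.

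Gstm6 sits at chr3:107938847-107943749 on the minus strand, in a chromosome 3 cluster with the other 6 mu members between 107895821 and 108044894. Of its exon windows, 5.97% are shared, most with Gstm3, its neighbour in the cluster. Gstm3 itself was close to undetected, at 0.932, 0, 0.853 and 0 in CeCo, 0, 0, 0.926 and 1.06 in CeHi, 0, 1.98, 4.2 and 2.74 in StCo and 0, 4.86 and 1.19 in StHi. The other tested cluster members did not pass the test for line. Gstm7, the closest tested relative in position, gave 0.35 ± 0.14 in the cerebellum (adjusted p = 0.181) and 0.28 ± 0.16 in the striatum (adjusted p = 0.457). Gstm1, the abundant mu enzyme of astrocytes, gave 0.17 ± 0.056 and 0.10 ± 0.061 (adjusted p = 0.0965 and 0.549), from 7134, 7532, 7064 and 7132 in CeCo and 7929.6, 8079, 7832 and 8704 in CeHi. For Gstm1 too every CeHi sample was above every CeCo sample. Gstm5, a mu form of brain and testis, Gstm4 and Gstm2 had cerebellar line differences of 0.13, -0.025 and -0.17 and striatal ones of 0.10, -0.058 and 0.29. Of 37 tested genes whose start lies within 1 Mb of that of Gstm6, none was called higher in Hi in either region and 2 were called lower in the cerebellum.

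Theta transferases, which act on small halogenated compounds and on peroxides, varied between mice of a line. Gstt1, at chr10:75783813-75798584 on the minus strand, had 125, 70.2, 99.8 and 197 normalised counts in StCo and 228, 281 and 254 in StHi. The StHi samples were all higher, but StCo replicate 3 came close to them. The striatal difference was 1.13 ± 0.26 (adjusted p = 0.0268), and the call was lost without StCo replicate 2 (adjusted p = 0.0593) and without any one of the StHi samples (0.05 to 0.112). In the cerebellum, Gstt1 was 504, 476, 457 and 655 in CeCo and 552, 523, 698 and 746 in CeHi, and the lines overlapped (0.26 ± 0.24, adjusted p = 0.597). The test of the difference between regions gave 0.87 ± 0.35 and was not called (adjusted p = 0.408).

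The neighbours of Gstt1 in the theta cluster on chromosome 10 did not share its call. Gstt3 had 58, 58.4, 50.4 and 75.9 in StCo and 83, 109 and 86.7 in StHi, which did not overlap, and its difference of 0.61 ± 0.19 had an adjusted p of 0.105. In the cerebellum it was -0.094 ± 0.17. Gstt2 went the other way in the cerebellum, at 150.1, 249.6, 247 and 116 in CeCo and 119, 92.8, 122 and 146 in CeHi, with a difference of -0.61 ± 0.26 that was not called (adjusted p = 0.206) and overlapping samples. In the striatum Gstt2 gave 0.024 ± 0.29. Gstt4 was at or near the detection floor of 3 fragments, at 2.8, 0.892, 5.97 and 0.891 in CeCo and 1.68, 0, 0.926 and 2.11 in CeHi, and was listed at 0 in all StCo samples. Within 1 Mb of Gstt1, 1 of 30 tested genes was called higher in StHi, the tautomerase gene Ddt, whose start is 25.2 kb away (0.37 ± 0.089, adjusted p = 0.0298).

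Gsta4, the alpha transferase that conjugates 4-hydroxynonenal from oxidised lipids and lies at chr9:78182774-78209349 on the plus strand, was the only alpha member with enough fragments to be tested. It had 1744, 1589, 1716 and 1619 normalised counts in CeCo and 1929.8, 1944, 2105 and 2243 in CeHi. Every CeHi sample was above the CeCo samples, and the difference was 0.29 ± 0.083 (adjusted p = 0.0468). This call was lost in 15 of 26 alternatives, with adjusted p-values up to 0.122, while the difference stayed between 0.25 and 0.34. In the striatum the lines overlapped (1012, 1006, 1011 and 832 in StCo and 1173, 899 and 1062 in StHi, 0.10 ± 0.09). The call was absent without any one of the CeCo or CeHi samples and without StCo replicate 0, StCo replicate 1 or StHi replicate 2.

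**Figure D3:**
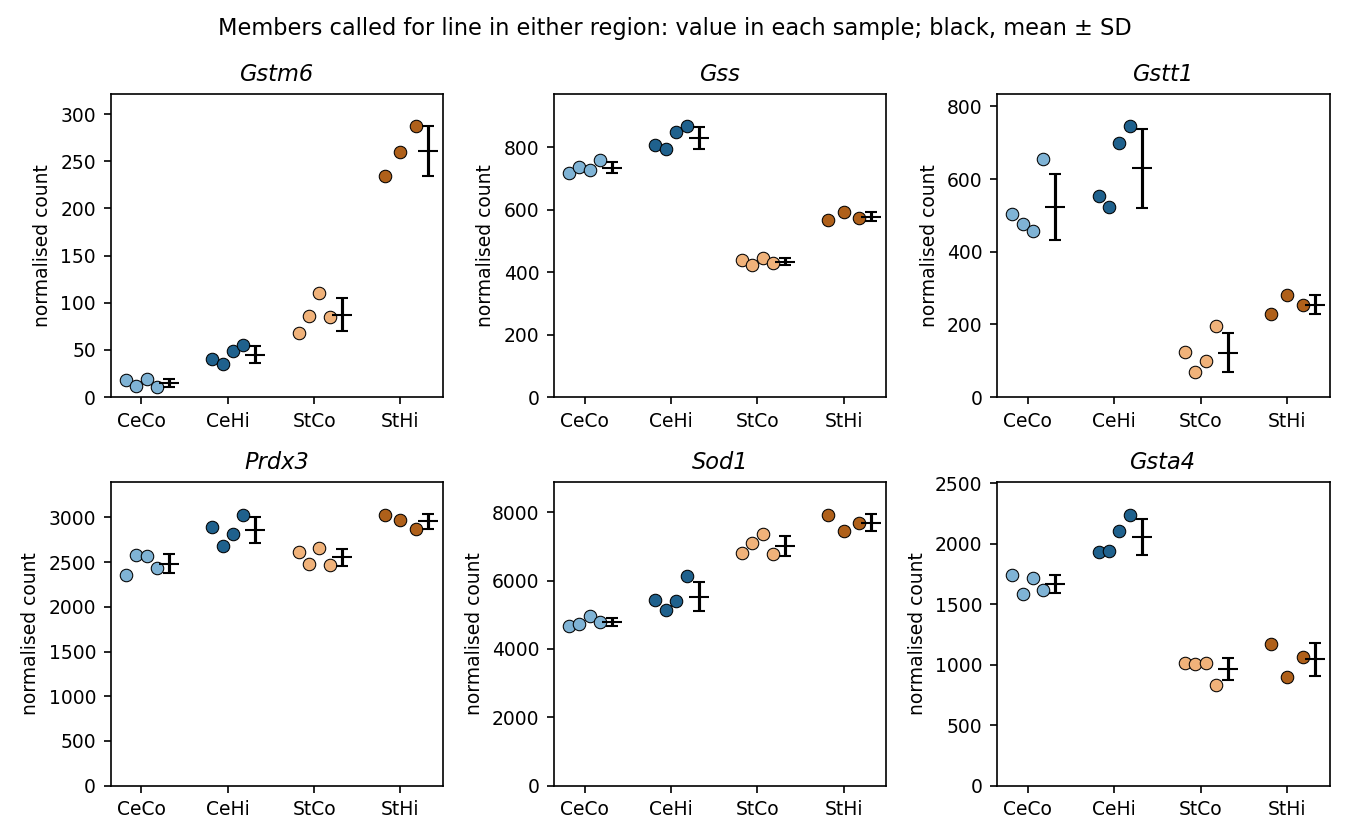
Normalised count in each sample (linear axis from 0) of the 6 members called for line in the cerebellum or striatum. Black marks are the group mean ± SD, and for Gstm6, Gss, Prdx3 and Sod1 every Hi sample is above every Co sample of its region.

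The remaining transferases were not called for line. Gsto1, an omega enzyme that reduces dehydroascorbate and arsenicals, had 624, 701, 701 and 640.3 in CeCo and 865, 654, 852 and 897 in CeHi (0.28 ± 0.09, adjusted p = 0.0812). The lines overlapped through CeHi replicate 1. Gstp1, the pi enzyme, differed by 0.027 ± 0.062 and 0.063 ± 0.067, and 33.7% of its windows are shared, mainly with Gstp2. Gstz1, of tyrosine breakdown, Gsto2 and the mitochondrial and peroxisomal Gstk1 had line differences between -0.067 and 0.11 over both regions. Of the microsomal enzymes, Mgst1, which also reduces lipid peroxides, was 575 ± 52.4 (SD, n = 4) in CeCo and 745 ± 118 (SD, n = 4) in CeHi and did not pass the test (0.36 ± 0.11, adjusted p = 0.0629). Mgst3, which also makes leukotriene C4, gave 0.076 ± 0.083 and -0.082 ± 0.09.

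Mgst2, a microsomal enzyme of leukotriene synthesis, was below the filter for testing but separated the lines. Its values were 0, 0, 0 and 1.78 in CeCo and 5.05, 3.16, 3.71 and 6.34 in CeHi. In the striatum they were 0, 0, 1.05 and 1.83 in StCo and 13, 8.74 and 8.31 in StHi. Both Co groups were at or under the detection floor of 3 fragments in every sample, and every Hi sample was above every Co sample of its region. CeHi held only 6, 3, 4 and 6 fragments, so CeHi replicate 1 was itself at the floor and no bound is given for the cerebellum. The StHi mean was at least 3.19-fold higher than StCo taken at the floor of 3 fragments per library. In the fit without a filter the line differences were 2.08 ± 0.40 in the cerebellum (adjusted p = 0.00541) and 2.80 ± 0.43 in the striatum (adjusted p = 0.00127), values that depend on the pseudocount. Mgst2 was singled out here after its values were seen.

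Among the glutathione peroxidases no member was called for line. Gpx3, the secreted plasma form, had 181, 123, 160.4 and 138 in CeCo and 208, 211, 222 and 425 in CeHi. The lines did not overlap in the cerebellum, but CeHi replicate 3 stood far above the other CeHi samples and the difference of 0.76 ± 0.24 did not pass (adjusted p = 0.0902). In the striatum Gpx3 was 785, 1076, 1414 and 679 in StCo and 1121, 958 and 1108 in StHi (0.15 ± 0.26). Gpx1, the abundant cytosolic form, had 3401, 3167, 3268 and 3228 in StCo and 3885, 3677 and 3594 in StHi, which did not overlap, with a difference of 0.18 ± 0.10 (adjusted p = 0.474). Its cerebellar difference was 0.15 ± 0.10. Gpx4 gave 0.11 ± 0.072 and 0.06 ± 0.078.

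Gpx6, a selenium-independent relative of Gpx3 in rodents, was above the detection floor of 3 fragments in the striatum alone. It had 42, 54.4, 48.3 and 69.5 normalised counts in StCo and 9.08, 43.7 and 29.7 in StHi, and no more than 2 fragments in any cerebellar sample. It passed the filter through its striatal samples, and no line difference is read for it in the cerebellum. Against a floor of 3 fragments per library, the StCo mean was at least 20.0-fold above CeCo and the StHi mean at least 9.45-fold above CeHi. StHi replicate 0 was the low sample, and the lines overlapped in the striatum (-1.17 ± 0.47, adjusted p = 0.252). Gpx7 and Gpx8, which act in the endoplasmic reticulum, had line differences of 0.14 and 0.18 in the cerebellum and 0.13 and -0.0093 in the striatum. Gpx2 was below the filter, with at most 6.8 normalised counts, and Gpx5 was listed at 0 in every sample.

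Of the peroxiredoxins and thioredoxins, Prdx3 alone was called for line, and it was called in both regions, in the striatum less stably. Prdx3, the mitochondrial peroxiredoxin, lies at chr19:60864051-60874556 on the minus strand. It had 2352, 2577, 2567 and 2434 normalised counts in CeCo and 2899, 2678, 2819.5 and 3031 in CeHi. In the striatum it had 2609, 2479, 2654 and 2472 in StCo and 3033, 2975 and 2869 in StHi. The lines did not overlap in either region, and the shifts were small and alike in size: 0.20 ± 0.05 (adjusted p = 0.0264) and 0.21 ± 0.054 (adjusted p = 0.0492). The difference between regions was 0.011 ± 0.073. The cerebellar call was lost without CeCo replicate 0 (0.0876), CeCo replicate 3 (0.069), CeHi replicate 0 (0.0643) or CeHi replicate 3 (0.0718), and the striatal call in 17 of 26 alternatives, with adjusted p-values up to 0.433. Among these were the fit with the replicate number as a block (0.0824), and leaving out any StHi sample (0.082 to 0.15), StCo replicates 0, 1 or 3 (0.0667 to 0.151), CeCo replicates 1, 2 or 3 (0.0506 to 0.0573) and CeHi replicates 0 or 2 (0.0581 and 0.0587).

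The other peroxiredoxins had positive cerebellar differences of similar size that did not pass. Prdx2, the cytosolic form of neurons and red cells, gave 0.17 ± 0.055 (adjusted p = 0.0801) and Prdx6, which also has phospholipase activity and is held by astrocytes, 0.20 ± 0.063 (adjusted p = 0.0684). For both, every CeHi sample was above every CeCo sample. Prdx2 was 8107, 8464, 8558 and 8437 in CeCo and 9256, 8833, 9401 and 10526 in CeHi. Prdx1, Prdx4 of the endoplasmic reticulum and Prdx5 gave 0.12, 0.14 and 0.086 in the cerebellum and 0.078, -0.037 and 0.10 in the striatum. Txn1, the cytosolic thioredoxin, had 0.11 ± 0.065 and -0.0034 ± 0.07, and its mitochondrial counterpart Txn2 0.14 ± 0.052 and 0.074 ± 0.056. Of the reductases, Txnrd1 separated the lines in the cerebellum at 0.16 ± 0.053 (adjusted p = 0.095), whereas Txnrd2 and Txnrd3 gave -0.12 and 0.19.

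Sod1, at chr16:90220754-90226329 on the plus strand, was the called member among the superoxide dismutases and catalase. It had 4679.5, 4734, 4964 and 4776 normalised counts in CeCo and 5428, 5132, 5415 and 6132 in CeHi. In the striatum it had 6805, 7091, 7372 and 6773 in StCo and 7929, 7442 and 7694 in StHi. The lines were apart in both regions, by a wider margin in the cerebellum, where the difference was 0.20 ± 0.054 (adjusted p = 0.0386), than in the striatum, where it was 0.13 ± 0.058 (adjusted p = 0.331). The test of that contrast gave -0.071 ± 0.079 (adjusted p = 0.875). The cerebellar call was lost in 12 of 26 alternatives, among them leaving out any of CeCo replicates 0, 1 and 3 (0.0809 to 0.101), CeHi replicates 0, 2 and 3 (0.0597 to 0.0908), StCo replicate 1 (0.0519) or StHi replicate 2 (0.0527). Mitochondrial Sod2 had 0.086 ± 0.044 and 0.03 ± 0.048, and Cat -0.0079 ± 0.052 and -0.025 ± 0.056.

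Extracellular Sod3 had its lowest cerebellar value of each line in the sample with the fewest choroid plexus markers. It was 520.0, 414, 694 and 477 in CeCo, where the summed choroid plexus markers were 79029, 1741, 116302 and 36292 normalised counts. It was 463, 622, 773 and 653 in CeHi, where they were 1400, 113056, 88175 and 12788. The line difference was 0.25 ± 0.17 (adjusted p = 0.453), and 0.29 ± 0.13 (adjusted p = 0.238) with the log2 of the choroid plexus sum as a covariate, an alternative chosen after seeing the data. Nqo1, a quinone reductase and a standard NRF2 target, gave 0.19 ± 0.10 in the cerebellum and -0.066 ± 0.11 in the striatum. The haem oxygenases, the inducible Hmox1 and the constitutive Hmox2, gave 0.17 and 0.041 in the cerebellum and 0.04 and -0.06 in the striatum. Hmox2 shares 41.9% of its exon windows, mostly with the overlapping gene Cdip1.

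No member was called for the line by region interaction, for which 0.532% of all genes tested were called by limma. At an unadjusted p under 0.05 there were 4 members of 45, beside 9.56% of all genes: Gss, Gstt3, Gstt1 and Gpx6. For Gpx6 the value rests on cerebellar samples at the detection floor and is not read, which leaves 3 of 44. The quasi-likelihood test of edgeR on the recovered fragments also called 0, with 3 of these 44 at an unadjusted p under 0.05. Whether a line difference held in one region alone is therefore not shown for any member.

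Region differences were much more common than line differences. Of the 45 tested members, 41 were called between striatum and cerebellum (80.2% of all genes tested were called), 18 higher in St and 23 higher in Ce. Gpx6, which passed the filter only through its striatal samples, is among the 18, and without it 40 of 44 were called, 17 and 23. The median difference of these 44 was -0.14, beside -0.011 over all genes. Prdx1, Prdx2, Prdx3 and Txnrd2 were not called. Within the Co line alone 36 members were called, beside 74.7% of all genes tested, and within the Hi line alone 36, beside 70.5%. Most enzyme classes held calls in both directions. Higher in St and in Ce were 4 and 2 of the mu transferases, 4 (with Gpx6) and 2 of the peroxidases, 2 and 2 of the omega, kappa and zeta transferases, 2 and 2 of the dismutases and catalase, 1 and 3 of the synthesis and recycling enzymes, 1 and 3 of the thioredoxin group, 1 and 2 of the peroxiredoxins, and 2 and 1 of Nqo1 and the haem oxygenases. The 3 theta, 2 microsomal and 1 alpha member tested were higher in Ce and the 1 pi member in St, numbers too small to describe a class, and classes were not tested.

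**Figure D4:**
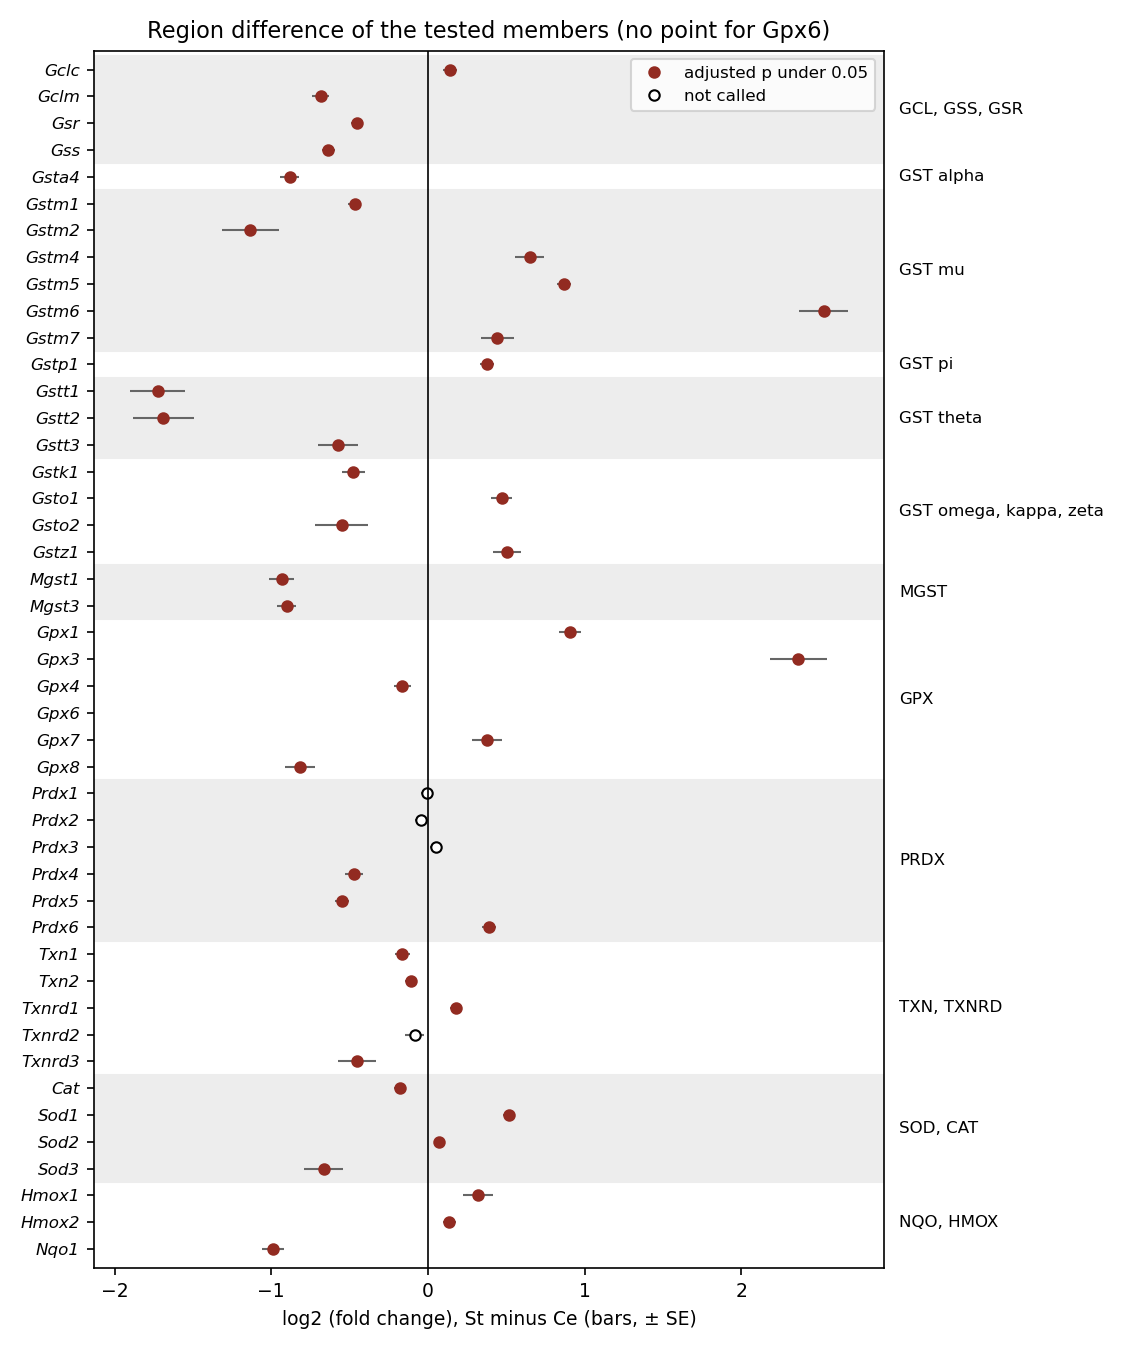
Region difference, log2 (fold change) St minus Ce with its SE, of the tested members by enzyme class, averaged over the lines, without a point for Gpx6, which was at the detection floor in the cerebellum. Points to the right are higher in the striatum (Gstm6 and Gpx3 farthest), points to the left higher in the cerebellum (Gstt1 and Gstt2 farthest), and the 4 open points are not called.

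Toward the striatum, Gpx6 is given by its bounds above, at least 20.0-fold in Co and at least 9.45-fold in Hi. Of the other members, Gstm6 (2.53 ± 0.16, adjusted p = 8.21e-11) and Gpx3 (2.37 ± 0.18, adjusted p = 1.03e-08) differed most. For these 3 genes, picked for the size of their difference, every striatal sample was above every cerebellar one, which adds no support. Gpx1 had a median of 1760.3 in CeCo and 3248 in StCo (0.91 ± 0.07), and Gstm5 2266 and 4161 (0.87 ± 0.045). Gstm4, Sod1 and Gstz1 followed at 0.65, 0.52 and 0.50. Gsto1, Gstm7, Prdx6, Gpx7, Gstp1, Hmox1, Txnrd1, Gclc, Hmox2 and Sod2 completed the 18, between 0.073 and 0.47. Below the filter, Gsta3, an alpha transferase, was 25.2, 24.1, 26.5 and 27.6 in CeCo and 38.3, 41.5, 54.6 and 41.1 in StCo. In the Hi line the regions overlapped for Gsta3, at 47, 11, 25 and 16 fragments in CeHi and 27, 35 and 32 in StHi.

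Toward the cerebellum, the largest differences were those of Gstt1 (-1.73 ± 0.17, adjusted p = 2.02e-07) and Gstt2 (-1.69 ± 0.19, adjusted p = 4.31e-07). Gstm2 was 69.9, 61.5, 108 and 85.5 in CeCo and 21, 43.5, 37.8 and 23.8 in StCo (-1.13 ± 0.18), in the same direction as Gstm1 (-0.47), the other mu member called higher in Ce, and opposite to Gstm4, Gstm5, Gstm6 and Gstm7. Nqo1 was 332, 354, 383 and 346 in CeCo and 170.3, 198, 202 and 205 in StCo (-0.99 ± 0.073). Mgst1, Mgst3, Gsta4 and Gpx8 followed at -0.93, -0.90, -0.88 and -0.82. In all of these 8 genes every Ce sample was above every St sample. They were picked as the largest called differences, so this separation adds no support, and its share over all genes was not counted. The synthesis enzymes Gclm and Gss (-0.68 and -0.64) and the reductase Gsr (-0.45) were also higher in Ce, while Gclc was higher in St (0.14 ± 0.044, adjusted p = 0.00761). Sod3, Gstt3, Gsto2, Prdx5, Gstk1, Prdx4, Gstm1, Txnrd3, Cat, Gpx4, Txn1 and Txn2 made up the rest of the 23, between -0.66 and -0.11.

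The untested members were few in fragments. Gsta1 and Gsta2 did not exceed 3 fragments in any sample, and Gpx5 was listed at 0. Gpx2, Gsta3, Gstm3, Gstp2, Gstt4 and Mgst2 had fragments but were below the filter, and the 54.3% of exon windows that Gstp2 shares make its values, 0 to 5.97 in CeCo, uncertain.

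Genes around these enzymes were listed in 6 groups: glutathione turnover and transport, thiol partners, NADPH supply, NRF2 regulators, haem and iron handling, and selenoprotein synthesis. Of 78 tested genes in them, 4 were called for line in the cerebellum (5.13%, beside 5.94% of all genes in either direction). In the striatum 1 was called (1.28%, beside 2.66%). All of these were higher in Hi and none lower. Of all genes tested, 2.94% were called and higher in Hi in the cerebellum and 1.49% in the striatum. The lists were not tested against these shares. Of the 16 tested thiol partners, 2 were called in the cerebellum: Txnip, which binds and inhibits thioredoxin, at 0.75 ± 0.13 (adjusted p = 0.00178), and Msrb2, a mitochondrial methionine sulphoxide reductase, at 0.74 ± 0.14 (adjusted p = 0.00471). Txnip rose from 792 ± 91.6 (SD, n = 4) in CeCo to 1335 ± 131 (SD, n = 4) in CeHi. In the striatum these genes had 0.52 ± 0.14 (adjusted p = 0.0625) and 0.39 ± 0.16 (adjusted p = 0.242). None of the 16 was called lower.

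Among 12 tested genes of selenoprotein synthesis and transport, Sepp1 (Selenop), the secreted carrier that brings selenium to the brain, was called higher in Hi in both regions. It had 15430.3 ± 880.4 in CeCo and 19873 ± 1128 in CeHi (SD, n = 4 each), and 13453 ± 1169 in StCo (SD, n = 4) and 17032 ± 1204 in StHi (SD, n = 3). The differences were 0.36 ± 0.068 (adjusted p = 0.00356) and 0.34 ± 0.074 (adjusted p = 0.0184). Of 19 tested genes of glutathione turnover, Slc1a1, the neuronal glutamate transporter that also carries cysteine, was called in the cerebellum (0.20 ± 0.052, adjusted p = 0.0335). Slc7a11, the cystine antiporter, gave 0.34 ± 0.16 and 0.46 ± 0.17 and was not called.

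No gene of NADPH supply (13 tested), NRF2 regulation (10) or haem and iron handling (8) was called for line. The transcription factor gene Nfe2l2 (NRF2) differed by -0.04 ± 0.081 in the cerebellum and 0.039 ± 0.088 in the striatum, and its repressor Keap1 by -0.028 ± 0.046 and -0.025 ± 0.05. Srxn1, which reactivates oxidised peroxiredoxins, gave 0.22 ± 0.07 and 0.10 ± 0.076. Between regions, 28 of the 78 genes were called higher in St and 36 higher in Ce (82.1% together, beside 80.2% of all genes). Examples are Sepw1 (Selenow), a small selenoprotein of muscle and brain (1.07 ± 0.054), Me3, a mitochondrial malic enzyme (1.27 ± 0.04), and Nfe2l1, which encodes a relative of NRF2 (0.77 ± 0.033), toward St. Toward Ce, they are Selm (Selenom), a selenoprotein of the endoplasmic reticulum (-1.65 ± 0.048), Sesn1, a sestrin (-0.99 ± 0.039) and G6pdx, the entry enzyme of the pentose phosphate pathway (-0.50 ± 0.044).

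Near the other called members, the tested genes with a start within 1 Mb were mostly not called for line. Around Gss, 2 of 35 were called higher in StHi: the myosin gene Myh7b, with a start 18.4 kb away (1.60 ± 0.17, adjusted p = 2.13e-05), and Edem2, of protein quality control in the endoplasmic reticulum, 137 kb away (0.33 ± 0.071, adjusted p = 0.0168). Edem2 was also called higher in CeHi (0.42 ± 0.066, adjusted p = 0.00068), where 3 neighbours of Gss were called lower. Of 12 genes near Gsta4 none was called. Near Prdx3 1 of 10 genes was called in each region, and near Sod1 1 of 11.

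Some summed cell type markers differed between the lines too. No tested marker of astrocytes, oligodendrocytes, microglia, endothelium, choroid plexus, erythroid cells or meningeal fibroblasts was called for line, and none of the markers was at 0 in every sample. The summed oligodendrocyte markers (6 genes) were nevertheless 196890 to 284606 in StCo and 300421 to 341456 in StHi, without overlap, and 181792 to 222619 in CeCo and 207061 to 264665 in CeHi. With the log2 of that sum as a covariate, an alternative chosen after seeing the data, Gss (0.41 became 0.38, adjusted p = 0.0303) and Gstm6 (1.60, adjusted p = 0.0168) remained called in the striatum. Gstt1 fell to 0.57 (adjusted p = 0.446) and Prdx3 to 0.16 (adjusted p = 0.433). As the sum did not overlap between StCo and StHi, this fit cannot tell line and oligodendrocyte content apart in the striatum. In the cerebellum Gstm6 alone was called with this covariate (1.57, adjusted p = 0.0015). There Gsta4 had 0.34 (adjusted p = 0.0755), Sod1 0.19 (adjusted p = 0.137) and Prdx3 0.17 (adjusted p = 0.148).

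With the choroid plexus sum as the covariate Gstm6 and Prdx3 were called in the cerebellum and Gss, Gstm6 and Prdx3 in the striatum. Gsta4 (0.0504), Sod1 (0.0512) and, in the striatum, Gstt1 (0.054) then had adjusted p-values just above the threshold. The summed erythroid markers (2 of the genes tested) were 553 to 940 in StCo and 1058 to 1175 in StHi, and within Ce they were highest in CeHi replicate 3, at 3677. The same library had the highest cerebellar values of Prdx2, a major red cell protein, and of Gpx1. It was also the highest cerebellar library for every member called there, Gstm6, Prdx3, Sod1 and Gsta4. The same held for other members, among them Gss, Gstm1, Gsto1, Gpx3 and Gpx4. The part of erythroid RNA in these values was not tested. Of the neuronal markers, Cbln1, a granule cell marker, was called higher in StHi (0.51, adjusted p = 0.0262) and the other 12 were not called for line. The medium spiny neuron sum (5 genes) was 8158 to 9440 in CeCo and 10167 to 11328 in CeHi, without overlap. The part of these neuronal markers in the results was not tested.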

How the data were processed

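RNA-seq of 4 CeCo, 4 CeHi, 4 StCo and 3 StHi samples was analysed, grouped by their deposited labels. Reads were aligned by the authors with TopHat2 (GRCm38), and Cuffnorm 2.2.1 was used to normalize the counts. The labels name mm10 and Cuffdiff too. The deposited values are a signal, counts of fragments that the authors divided by a factor per sample. The table is named for FPKM, but its low values were whole multiples of 1 step per sample (99.6% to 99.8% of them, within 0.1 step), so no length correction was applied, and all 26628 genes and 15 columns were used. The labels give an age of 6 weeks and the methods 7 weeks.

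The 15213 genes that reached a CPM of 1 in 3 samples or more were scaled with TMM (edgeR 4.0.16, scale factors 0.993 to 1.01), transformed as log2 of the value plus a pseudocount of 1, and fitted with limma 3.58.1 in R 4.3.3 as 4 group means over all samples (empirical Bayes, trended and robust), with Benjamini-Hochberg adjustment over all genes tested. The design provided for edgeR had the table held raw counts. As the values are scaled, edgeR's quasi-likelihood test was run as an alternative on the recovered fragments. The script was tested on simulated data.

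The members and lists were chosen with earlier results of these data known. Given in depth were the members called for line or interaction, the 8 largest region differences in each direction, members at the floor of 3 fragments in 1 region, and the member of each class with the highest level per kilobase. From each list, up to 4 called genes with the smallest adjusted p were to be named, or else the 2 smallest. This was not followed in full. All list genes called for line were named, while the uncalled genes and the region examples are a selection made after their values were seen. Exon lengths, overlaps and neighbours came from GENCODE M21 (GRCm38), in which all 54 members were found. Shared sequence is the share of windows of 50 exon bases found elsewhere in the transcripts. Promoters came from RefSeq (GRCm38.p6), and Gclc, Gsr, Gsta4, Gstt2, Hmox1, Prdx6 and Sod3 had no entry. Floors cover counting error only. Alternatives were the pseudocount, filter, scaling, edgeR, sample weights, a replicate block, each region alone, and each sample left out in turn. Per the labels, both regions were taken from each mouse and no pooling of mice is given. The p-values for line within a region rest on a spread between mice that was estimated over the samples of both regions together. The main fit treated all samples as independent, so its p-values, also those for region and interaction, leave out any pairing of regions by mouse.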

Additional observations from a re-analysis of the deposited data

Results flagged for a closer look

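Of 78 sets of 4 samples (the 26 tested members given in depth, in CeCo, CeHi and StCo), 9 held a sample that stood apart from the rest by Dixon's criterion for a single outlier. Chance alone gives about 1 in 20 such sets. CeHi replicate 3 gave 3 of the 9, all high: Gpx3 at 425 (the others 208 to 222), Gpx4 at 13347 (10419 to 10833) and Txn1 at 2703 (2363 to 2399). CeCo replicate 3 was high for Gstp1, at 1998 (1848 to 1866), and Mgst3, at 3717 (3112 to 3163). Its Gpx6 value of 0.891, beside 0 in the others, is a single fragment. CeCo replicate 1 was high for Gstm1, at 7532 (7064 to 7134). In StCo, replicate 3 was low for Gsta4, at 832 (1006 to 1012), and replicate 1 was low for Hmox2, at 2029 (2146 to 2169). None of these sets was left out of a comparison for this reason.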

How the results depend on the processing

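The count of members called for line in the cerebellum, 4, was 2 after quantile normalization, 2 with each region fitted alone, 2 with the choroid plexus covariate and 1 with the oligodendrocyte covariate, and 1 to 6 with single libraries left out. In the striatum, 4 became 2 with each region alone, 2 with the oligodendrocyte covariate and 2 to 4 with single libraries left out. The causes were not tested. Fits with a library left out and fits of 1 region also held fewer samples. With each region alone, Prdx3 (adjusted p = 0.0587) and Sod1 (0.0778) were lost in the cerebellum, and Gstt1 (0.114) and Prdx3 (0.0801) in the striatum. The interaction count was 0 throughout (0 to 0 with libraries left out), and the region count, 41, lay between 39 and 41 with libraries left out and was 36 and 32 with the choroid plexus and oligodendrocyte covariates. No line difference of a called member changed sign. Quantile normalization moved the median region difference of all genes from -0.011 to -0.0953.

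With the replicate number as a block, 4 members were called in the cerebellum, 3 in the striatum (Prdx3 lost, adjusted p = 0.0824), 40 for region and 0 for interaction. This block joins samples of the same number from both lines, which are different mice. It is therefore not a fit paired by mouse, and no such fit was run. Deviations of same-numbered Ce and St samples correlated in the Co line (r = 0.196, 0.177, 0.278 and 0.171, each sample correlating best with its own number) but not in Hi (r = -0.0298, -0.0751 and 0.0513). The numbers may therefore pair the samples in Co. As this was not seen in both lines, the fit without the block was kept. The check cannot decide pairing in Hi, because a StHi sample was removed and the others, numbered 0 to 2, may have been renumbered. Gstm6, Gpx6 and Mgst2, with few fragments in some groups, are the members whose size of change the depth limits most.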

Other observations

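In the Co line, Gstt1 and Gstt2, picked after their values were seen, had replicates 0 and 3 apart from 1 and 2 in both regions, and Gstt3 did so in CeCo alone. Gstt1 was highest in replicate 3, at 655 normalised counts in CeCo and 197 in StCo, and next highest in replicate 0, at 504 and 125. Replicates 1 and 2 had 476 and 457 in CeCo and 70.2 and 99.8 in StCo, so the gap in CeCo, between 476 and 504, was narrow. Gstt2 went the opposite way, with 249.6 and 247 in CeCo replicates 1 and 2 and 150.1 and 116 in replicates 0 and 3. In StCo, Gstt2 had 52.4 and 62 in replicates 1 and 2 and 29.6 and 39.3 in replicates 0 and 3. Gstt3 had 106, 122, 133 and 102 in CeCo replicates 0 to 3 and 58, 58.4, 50.4 and 75.9 in StCo. In the Hi line Gstt2 ranged from 92.8 to 146 in CeHi and from 36.3 to 57.3 in StHi. The summed oligodendrocyte markers had the same split in StCo, at 284606 and 282809 in replicates 0 and 3 and 196890 and 216669 in replicates 1 and 2. They did not in CeCo, at 181792, 193823, 222619 and 204689 in replicates 0 to 3. The part of oligodendrocyte RNA in the theta values was not tested. The labels do not say whether samples of the same number came from the same mouse.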
